A study of Arabidopsis thaliana with 6 samples.

Results

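The DUF506 family, which includes RXR1, was represented by 6 genes that were followed across roots of wild-type Arabidopsis thaliana, of an RXR1 overexpressor and of an rxr1 mutant. They were AT1G12030, AT2G20670, AT2G38820, AT2G39650, AT3G07350 and AT3G22970. They were chosen by family membership and by having a probe set annotated to 1 gene, which gave 6 of the 13 loci counted as the family here and 6 of 13286 loci measured under a name. The other 7 loci, RXR1 (AT3G25240) among them, had no such probe set and were not analysed here. The level of RXR1, which would check the labels of the overexpressor and the mutant, is therefore not given.

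DUF506 proteins form a plant family defined by a conserved domain of unknown function, which resembles the fold of PD-(D/E)XK nucleases. For most members no molecular activity has been assigned. RXR1 holds back the elongation of root hairs. Root hairs are tubular outgrowths of single epidermal cells, which enlarge the surface for uptake of phosphate and other nutrients. No root function is attributed here to the 6 relatives, which are known by their locus names only, so they are described in the order of their behaviour.

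Total RNA from roots of 7-day-old seedlings grown on vertical plates was hybridised to 6 ATH1 arrays, 2 per genotype. The labels give the genotypes as WT, AtRXR1 overexpression and AtRXR1 mutant. The promoter of the overexpressor, the kind of mutation and the number of independent lines are not given in the sources used here. Nothing said that replicates came from separate plants, so the p-values rest on differences between arrays that may be technical repeats.

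Wild-type replicate 2 stood apart from the rest. Its correlations with the other 5 arrays in the authors' deposited table ran from 0.9700 to 0.9826, against 0.9938 to 0.9978 among those 5. The differences of the 6 genes from wild type are therefore also given without it. Pooled over all probe sets, the log2 SD between wild-type replicates was 0.191, against 0.101 for overexpressor and 0.114 for mutant replicates. Over the 6 DUF506 genes it was 0.206, 0.183 and 0.23, so these genes varied more between replicates of both lines than the average probe set.

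Signals below are RMA intensities on a linear scale (RMA is the authors' background correction, normalization and summary of probes into a probe set). Signals of different genes are not comparable, because their probes differ. AT2G39650 had signals of 145.3 and 169.8 in wild type, 149.4 and 178.8 in the overexpressor, and 105.4 and 112.5 in the mutant. Both mutant arrays were below all 4 others, while overexpressor and wild type overlapped. It was the member in which the 2 lines differed most from each other.

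AT3G22970 had signals of 583.6 and 707.6 in wild type, 543.3 and 530.9 in the overexpressor, and 472.9 and 546.0 in the mutant. Both wild-type arrays were above all 4 arrays of the lines, and the lines overlapped each other. AT3G07350 followed the same order, with 274.1 and 227.3 in wild type, 183.6 and 213.6 in the overexpressor, and 169.3 and 210.4 in the mutant. AT2G38820 was at 212.3 and 239.1 in wild type, 171.2 and 190.3 in the overexpressor, and 142.3 and 204.5 in the mutant. In all 3 of these genes the wild-type arrays were the highest pair, and the overexpressor and the mutant did not separate.

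AT2G20670 had the widest range of the 6 genes, 1.85-fold between its lowest and highest array. Its signals were 236.3 and 337.1 in wild type, 183.1 and 258.6 in the overexpressor, and 182.2 and 250.3 in the mutant. The arrays of all 3 genotypes overlapped. Within each genotype its 2 arrays lay about as far apart (log2 SD 0.362, 0.352 and 0.324, n = 2 each). The log2 distances between its 2 arrays, 0.51, 0.50 and 0.46, exceeded the distances of both line means from the wild-type mean, which are given below. Replicate 2 was the higher array in every genotype, and at each replicate number both lines read below wild type.

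AT1G12030 was dim and nearly flat. Its signals were 23.8 and 21.8 in wild type, 26.2 and 24.1 in the overexpressor, and 22.0 and 22.1 in the mutant. The 2 overexpressor arrays were above the other 4, with a range of 1.21-fold over all arrays. Control probe sets for a Bacillus transcript, 3 on the array, read 8.99 to 12.4, and no detection call was used, so its signal was not shown to lie above background.

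**Figure D1:**
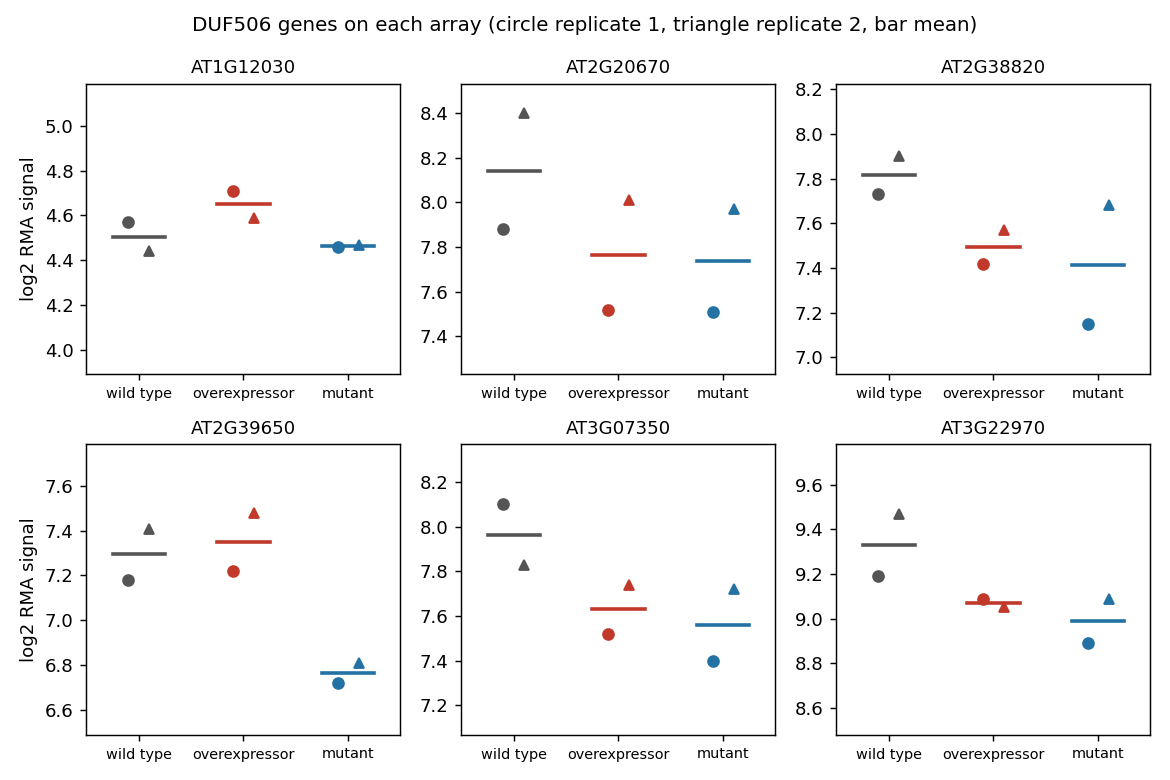
Log2 RMA signal (y axis) of each DUF506 gene on the 6 arrays, by genotype (x axis). Circles are replicate 1, triangles replicate 2 and bars the mean of 2 arrays. Each panel spans the same number of log2 units. In AT2G39650 both mutant arrays lie below all others, whereas in AT2G38820, AT3G07350 and AT3G22970 both wild-type arrays lie above all others.

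The first comparison asked how the relatives differ in roots that overexpress RXR1. AT2G38820, AT3G07350 and AT3G22970 were below wild type with no overlap of the arrays, by 16.4% to 20.7%. None of these differences passed the test over all probe sets. AT3G07350 had a log2 difference of -0.33 ± 0.147 (SE, n = 2 per group), with AT2G38820 at -0.32 ± 0.17 and AT3G22970 at -0.26 ± 0.122, with limma adjusted p of 0.434, 0.501 and 0.46. In bulk root RNA, fewer cells that express a gene and less RNA per cell cannot be told apart.

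AT2G20670 was at -0.38 ± 0.237 in the overexpressor (SE, limma adjusted p = 0.567), with overlapping arrays. AT2G39650 was at 0.06 ± 0.123 (limma adjusted p = 0.889). Its 95% confidence interval, -0.23 to 0.35, leaves room for a difference of moderate size either way. AT1G12030 was at 0.14 ± 0.0931 (limma adjusted p = 0.57), with both overexpressor arrays above wild type.

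Of the 6 genes, 0 were called at an adjusted p under 0.05 by limma, where 0.101% of all 22746 probe sets were called. At an unadjusted p under 0.05, 0 were lower, against 6.48% of all probe sets. Below 0 were 4 of the 6, against 48.4% of all, and the median of the 6 was -0.29, against 0.00566 over all probe sets. Lower with no overlap of the arrays were 3 of the 6, against 19.8% of all, and higher with no overlap was 1, against 21.6%. Without overexpressor replicate 1 the median was -0.18. Without wild-type replicate 1, AT3G22970 alone was called, at -0.40 (limma adjusted p = 0.0484, range over its alternatives 0.0484 to 0.934). That fit has the array that stood apart as its only control, and it called 3790 probe sets.

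Without wild-type replicate 2, the median in the overexpressor was -0.12 and 0 genes were called. AT3G07350 was then at -0.47, AT2G38820 at -0.23, AT3G22970 at -0.12 and AT2G20670 at -0.12, while AT2G39650 was at 0.17 and AT1G12030 at 0.08. AT3G07350 was thus further from wild type without that array, and the other 3 genes below 0 were closer to it. The 3 genes without overlap were the same, against 39.2% of all probe sets with wild-type replicate 1 as the only control. At an unadjusted p under 0.05, 1 gene, AT3G07350, was lower, against 7.25% of all.

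The second comparison asked how the relatives differ in the rxr1 mutant. All 6 differences were below 0, and 4 genes were below wild type with no overlap of the arrays. AT2G39650 had the largest difference, with a log2 value of -0.53 ± 0.123 (SE, n = 2 per group) and a signal 30.7% below wild type. Its limma adjusted p was 0.524, so it did not pass. The other 3 without overlap were AT3G07350 at -0.40 ± 0.147, AT2G38820 at -0.40 ± 0.17 and AT3G22970 at -0.34 ± 0.122, with limma adjusted p of 0.525, 0.534 and 0.525.

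AT2G20670 was at -0.40 ± 0.237 in the mutant (SE, limma adjusted p = 0.597). The interval of this difference, -0.96 to 0.15, was the widest of the 6. AT1G12030 was at -0.04 ± 0.0931 (limma adjusted p = 0.901), with an interval of -0.26 to 0.18. The intervals of the 4 genes without overlap all lay below 0 before adjustment, although that of AT2G38820 reached -0.00179 at its upper end.

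Called by limma were 0 of the 6, where 0.0044% of all probe sets were. Below 0 were 6 of 6, against 51.6% of all, with a median of -0.40 against -0.00511 over all probe sets. Lower with no overlap were 4 of 6, against 19.0% of all, and higher with no overlap were 0, against 19.1%. At an unadjusted p under 0.05, 4 of 6 were lower, against 4.33% of all probe sets. These 6 genes share arrays and were chosen with earlier results of these data known, so the shares are a description of the family and not a test.

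Single arrays moved the size of the mutant differences. The median was -0.20 without mutant replicate 1. On mutant replicate 1, 5 of the 6 genes had their lowest signal of all arrays, AT1G12030 being the other one. Among the 4 genes without overlap, AT2G39650 had the narrowest range, -0.64 to -0.42, over the 6 fits that each left out 1 array. AT2G38820 went from -0.66 to -0.14. Without wild-type replicate 1, AT2G39650 was called at -0.64 (limma adjusted p = 0.0231, range over its alternatives 0.0231 to 0.936). AT3G22970 was called in the same fit at -0.48 (limma adjusted p = 0.0357, range 0.0357 to 0.936), which rests on wild-type replicate 2 as the only control and called 2743 probe sets.

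Without wild-type replicate 2, the median in the mutant was -0.26 and 0 genes were called. AT3G07350 was then at -0.54, AT2G39650 at -0.42, AT2G38820 at -0.32 and AT3G22970 at -0.20, with AT2G20670 at -0.15 and AT1G12030 at -0.11. All 6 stayed below 0, as the 4 genes without overlap in the main fit had to. AT3G07350, not AT2G39650, had the largest difference. Lower with no overlap were 5 of 6, the dim AT1G12030 being added, against 38.8% of all probe sets. At an unadjusted p under 0.05, AT2G39650 and AT3G07350 were lower, 2 of 6, against 6.72% of all.

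**Figure D2:**
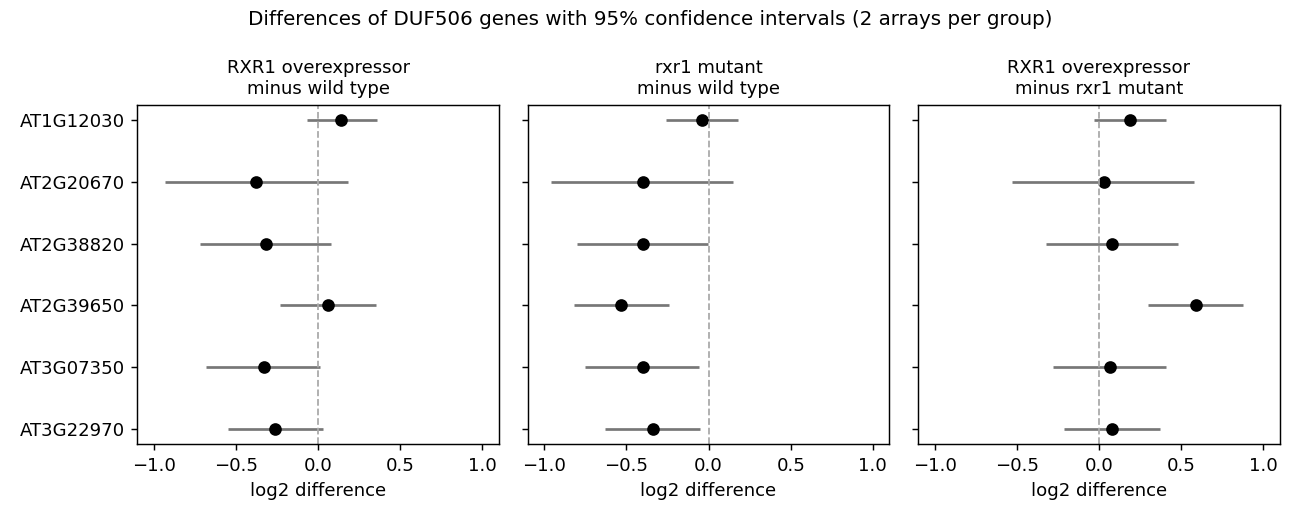
Log2 differences (x axis) of the 6 genes (y axis) in the 3 comparisons. Points are differences of 2-array means and lines 95% confidence intervals from limma before adjustment for multiple tests. AT2G39650 lies at -0.53 in the mutant against wild type and at 0.59 between the lines, and near 0 in the overexpressor against wild type.

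The differences of both lines use 1 shared pair of wild-type arrays, so a low value in both does not show a shared response. The values stood side by side as follows. AT2G20670 was at -0.38 (overexpressor) and -0.40 (mutant), and AT2G38820 at -0.32 and -0.40. AT3G07350 was at -0.33 and -0.40, and AT3G22970 at -0.26 and -0.34. AT2G39650 was at 0.06 and -0.53.

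Between the overexpressor and the mutant, the comparison that uses no wild-type mean, 1 gene stood out in size. AT2G39650 was 1.5-fold higher in the overexpressor, with a log2 difference of 0.59 ± 0.123 (SE, n = 2 per group). Its interval ran from 0.30 to 0.88, but it did not pass over all probe sets (limma adjusted p = 0.365, 0.0564 to 1 over its alternatives). Its arrays did not overlap, so leaving out 1 overexpressor or mutant array could not change its sign. The difference was then 0.46 to 0.72. Leaving out a wild-type array cannot change this difference. AT1G12030 was at 0.19 ± 0.0931 (limma adjusted p = 0.999), also without overlap, at the dim signal described above.

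The remaining 4 genes had log2 differences of 0.03 to 0.08, all with overlapping arrays. AT3G22970 was at 0.08, with an interval of -0.21 to 0.37. AT2G38820 was at 0.08 (-0.32 to 0.48), AT3G07350 at 0.07 (-0.28 to 0.41) and AT2G20670 at 0.03 (-0.53 to 0.58). These intervals do not show that the lines were alike, and the one of AT2G20670 allows a difference of nearly 1.5-fold either way. Of the 4 genes, 4 were below 0 without mutant replicate 1, with values of -0.20 to -0.02, and 2 without overexpressor replicate 2.

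Called by limma were 0 of the 6, where 0.0132% of all probe sets were. Below 0 were 0 of 6, against 48.6% of all, with a median of 0.08 against 0.00348. That median was -0.06 without mutant replicate 1. Higher with no overlap were 2 of 6, against 20.3% of all, and 1, AT2G39650, was higher at an unadjusted p under 0.05, against 2.31% of all probe sets. With 2 arrays on each side, the smallest p of an exact permutation test is 0.333, so none was run for single genes.

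**Figure D3:**
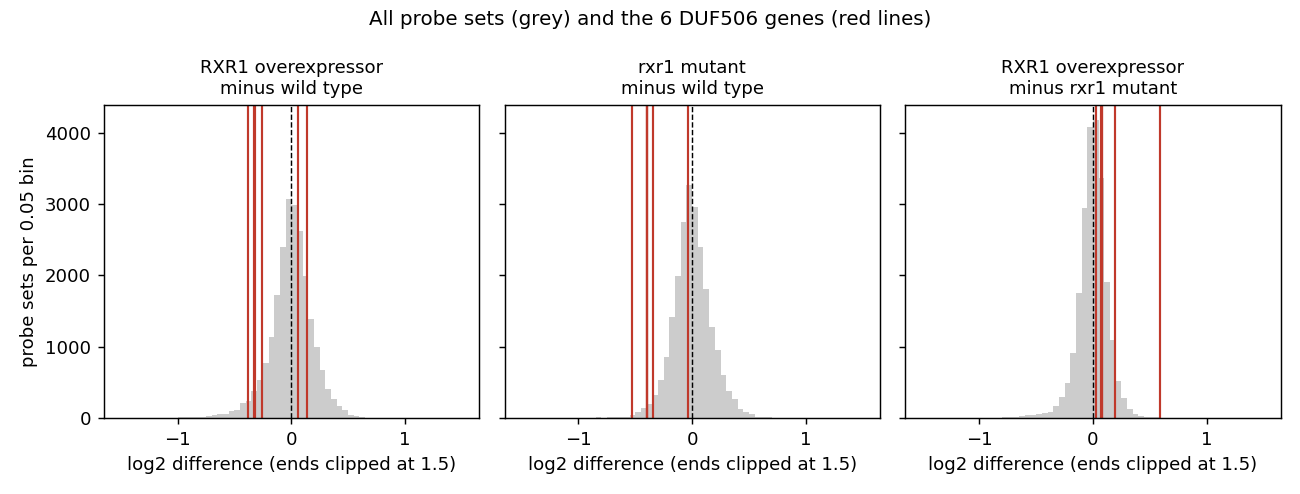
Number of probe sets (y axis) by log2 difference (x axis, bins of 0.05) for all 22746 probe sets, with the 6 DUF506 genes as red lines. In the mutant against wild type, 5 of the 6 lines lie left of most grey bars, between -0.53 and -0.34, and between the lines AT2G39650 lies alone at 0.59.

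Leaving out each array in turn showed how far single arrays moved each difference. AT2G20670 ranged from -0.63 to -0.12 in the overexpressor and from -0.66 to -0.15 in the mutant. Its replicate 2 was the higher array in every genotype. Leaving out an array unbalances the replicate numbers, so its range includes that shared offset. AT3G07350 ranged from -0.47 to -0.20 and from -0.56 to -0.25, and AT3G22970 from -0.40 to -0.12 and from -0.48 to -0.20. None of these 3 genes changed sign against wild type. AT3G07350 and AT3G22970 could not, because their arrays in both lines did not overlap those of wild type.

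**Figure D4:**
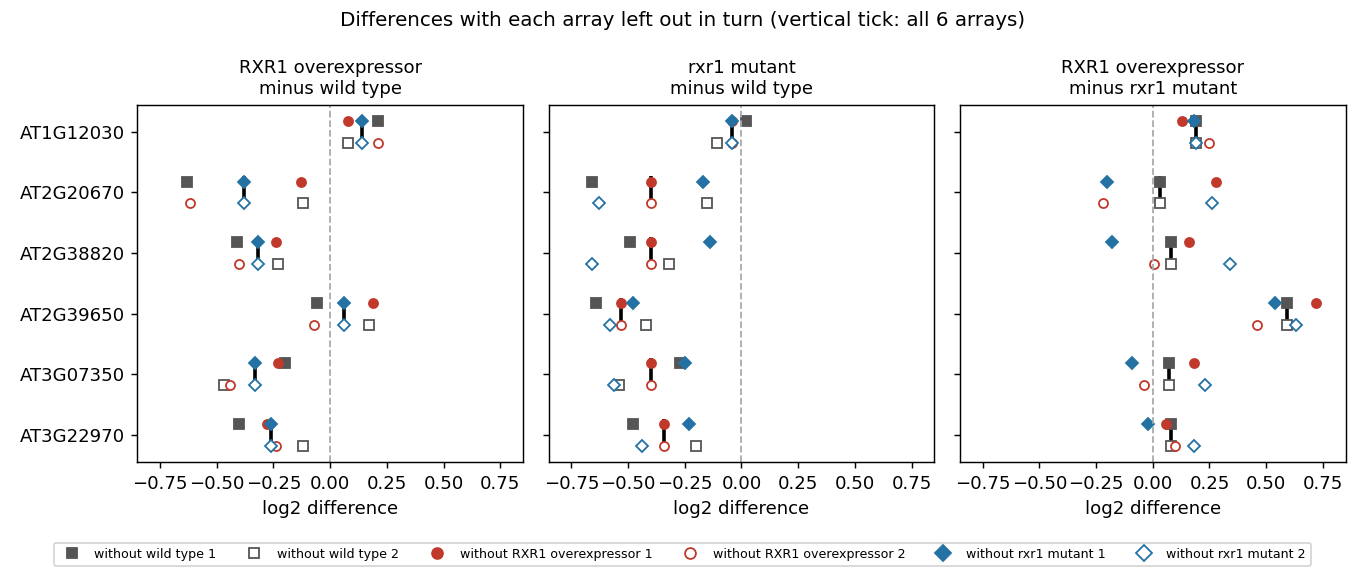
Log2 differences (x axis) of the 6 genes (y axis) with each array left out in turn, for the 3 comparisons. Filled symbols leave out replicate 1 and open symbols replicate 2 (squares wild type, circles overexpressor, diamonds mutant), and ticks show all 6 arrays. Between the lines AT2G39650 stays between 0.46 and 0.72, and 4 other genes cross 0.

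Over the 6 arrays, the 5 brighter genes correlated positively with each other, to differing degrees. Their 10 pairs had Pearson correlations of 0.45 to 0.89, highest between AT2G38820 and AT2G20670 (0.89) and between AT3G22970 and AT2G38820 (0.89). AT2G39650 had the lower ones, 0.45 to 0.59. AT1G12030 had -0.48 to 0.39 with the other 5. The points share the same 6 libraries, so these correlations are a description. Relative to each gene's own mean, the median of the 6 genes was 0.30 on wild-type replicate 2 and -0.34 on mutant replicate 1, and between -0.10 and 0.05 on the other 4 arrays. Over all probe sets it ran from -0.0141 to 0.0133.

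Among 7909 named probe sets outside the family whose log2 SD over the arrays was at least 0.1, the closest to each gene were listed by Pearson's r over the 6 arrays. For AT2G39650 these were AT3G27510 (0.991), the C2-domain protein gene SRC2 (0.988) and AT1G77640 (0.985). SRC2 read 879.0 and 960.4 in wild type, 855.1 and 956.8 in the overexpressor, and 670.8 and 724.7 in the mutant. Its mutant arrays were the lowest, which choosing it by correlation with AT2G39650 favours. For AT3G22970 they were AT2G27310 (0.995), AT5G22860 (0.988) and EXGT-A3 (0.987), which encodes a xyloglucan-modifying enzyme of the cell wall.

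For AT2G38820 the closest were SAG101 (0.989), a lipase-like protein of plant immunity, AT1G33055 (0.985) and AT5G60680 (0.98). For AT2G20670 they were AT2G38350 (0.995), AT3G18560 (0.995) and AT2G43320 (0.991). AT3G18560 went from 182.0 on mutant replicate 1 to 328.0 on wild-type replicate 2, the same lowest and highest arrays as AT2G20670, which the choice by correlation favours. For AT3G07350 they were AT3G31360 (0.986), AT4G35120 (0.984) and AT1G18410 (0.965), and for AT1G12030 AT2G01810 (0.987), the subtilase gene SBT5.4 (0.984) and AT3G13880 (0.976). With 6 arrays such values are reached by many probe sets: between 8 and 52 exceeded 0.95 for each gene. Several of those named had signals under 20, not far above the control range of 8.99 to 12.4.

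The genes next to the 6 on the chromosome were taken from the TAIR10.1 gene order. Of 12 neighbours 3 were measured under a name. BIK1, a receptor-like cytoplasmic kinase of immune signalling, lies beside AT2G39650 and read 380.7 and 463.2 in wild type, 312.4 and 348.6 in the overexpressor, and 327.6 and 364.7 in the mutant. Its arrays were below wild type in both lines (-0.35 and -0.28, limma adjusted p = 0.366 and 0.547). AT2G39640, on the other side, was at 0.11 and 0.21, and AT3G22980, beside AT3G22970, at 0.07 and 0.05. The neighbour of AT1G12030 is LRX1, a leucine-rich repeat extensin of the root hair wall, which was not measured under a name.

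The measured root hair markers were lowest on the overexpressor arrays, while most of the DUF506 genes gave the lines no clear order. Of 7 listed, 3 were measured: the expansins EXPA7 and EXPA18, which loosen the hair wall, and XTH26, a xyloglucan-modifying enzyme. Their summed signal was 845.3 and 877.8 in wild type, 470.0 and 528.2 in the overexpressor, and 748.3 and 844.1 in the mutant. All 3 differences were below 0 in both lines. XTH26 was called lower in the overexpressor (-1.34 ± 0.1, SE, limma adjusted p = 0.017) and not in the mutant (-0.36, limma adjusted p = 0.524). Between the lines it was at -0.97 (limma adjusted p = 0.0917). AT2G39650 had its low arrays in the mutant, where the root hair markers were closer to wild type. The part of root hair RNA in the DUF506 differences was not tested.

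RCA, which encodes Rubisco activase and was the only measured one of 8 shoot markers, read 489.8 and 536.6 in wild type, 383.1 and 364.8 in the overexpressor, and 407.8 and 462.2 in the mutant. Its wild-type arrays were the highest pair, as in AT2G38820, AT3G07350 and AT3G22970, and its part in those differences was not tested. AT2G14760, the only measured one of 10 root hair transcription factor genes, was at 0.10 and -0.01 in the overexpressor and mutant (limma adjusted p = 0.722 and 0.982). Of the lists of 7 calmodulins, 4 RABD GTPases, 14 phosphate starvation genes, 4 endodermis, 5 vascular, 5 dividing-cell and 3 root cap markers, 0 genes were measured under a name.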

How the data were processed

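Root RNA was measured on 6 Affymetrix ATH1 arrays, grouped by the labelled genotype. The authors deposited 1 linear intensity per probe set and array. The submitters' processing notes name RMA and Affymetrix Expression Console, without versions. A second deposited table held a correlation score for each pair of arrays, and a copy of the signals differed by at most 5e-06.

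After 64 controls were left out of 22810 probe sets, log2 was taken with no pseudocount and all 22746 were fitted with limma 3.58.1 (R 4.3.3; lmFit, then eBayes; 1 mean per genotype, 3 residual and 4.25 prior degrees of freedom). P-values were two-sided and adjusted by the Benjamini-Hochberg method over all probe sets, separately for each of 3 contrasts. The script was tested on simulated data. Array medians ran from 108.3 to 111.3. Precision is limited by how few arrays there were.

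Genes were named from the platform annotation through the TAIR10.1 gene table: 13436 probe sets matched 1 locus each. For a list gene with several probe sets the brightest was used. The members, lists and alternatives were chosen with earlier results of these data known. The text names the 6 members, called or largest genes of each list, the 3 named genes most like each member, and measured neighbours. Protein and promoter sequences were not used here.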

Additional observations from a re-analysis of the deposited data

How the results depend on the processing

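Across 16 alternatives (9 of processing, 1 of members and 6 leaving out an array), the median differences ran from -0.32 to -0.12 in the overexpressor, -0.57 to -0.20 in the mutant and -0.06 to 0.24 between the lines, each end but -0.32 set by leaving out an array and -0.32 reached both so and with the 5 brighter members. Of 252 tested alternative values for single genes, 240 kept their sign and side of the threshold, and 18 untested ratios of linear signals kept their sign. Many of these signs could not change. Fitting only the 4 arrays compared, both variance priors, the array weights and the replicate block leave each difference as it was. So does leaving out an array of the genotype not compared. Where the arrays of the compared genotypes did not overlap, leaving out 1 of them cannot change the sign. As 0 members were called in the main fit, the same side means not called again. All changes of the members' results came from leaving out an array, and the cause was not tested. The numbers called were 0 to 1 in the overexpressor and 0 to 2 in the mutant, the higher ones without wild-type replicate 1, and the number below 0 between the lines was 0 to 4. AT3G22970 then passed in both lines and AT2G39650 in the mutant. Ranges over the left-out arrays that crossed 0 were -0.07 to 0.19 for AT2G39650 in the overexpressor and -0.11 to 0.02 for AT1G12030 in the mutant. Between the lines they were -0.22 to 0.28 for AT2G20670, -0.18 to 0.34 for AT2G38820, -0.09 to 0.23 for AT3G07350 and -0.02 to 0.18 for AT3G22970.

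The labels share replicate numbers, and the main fit did not take same-numbered arrays as pairs. Their deviations correlated at 0.0533 between wild type and overexpressor, 0.316 between wild type and mutant, and 0.125 between overexpressor and mutant. All of these were weak but positive, and whether same-numbered arrays share a source was not tested. With the replicate number as a replicate block, medians stayed at -0.29, -0.40 and 0.08, which such a block cannot change here. Of the members 0 were called, while calls over all probe sets went from 23 to 167, 1 to 2 and 3 to 30. The lowest adjusted p of a member was then 0.0817, for AT2G39650 between the lines. With only the 4 arrays compared, 0, 0 and 58 probe sets were called, with array weights 12, 1 and 100, and with a trend in the variance prior 38, 1 and 3. Centring arrays on their median gave 22, 1 and 1, and a second quantile normalization 25, 1 and 1. Within a genotype the array weights were equal, so they did not separate wild-type replicate 2.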

Other observations

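In AT2G20670 the array numbered 2 was above the array numbered 1 by 0.51 (wild type), 0.50 (overexpressor) and 0.46 (mutant) on the log2 scale. This offset was larger than either line's difference from wild type (-0.38 and -0.40). It was similar in each genotype, so it largely cancels between same-numbered arrays. With the replicate block, limma adjusted p went from 0.567 to 0.138 in the overexpressor. In the mutant it went from 0.597 to 0.245, so neither difference was called. A positive offset in all genotypes was also seen in AT2G38820 (0.17, 0.15 and 0.52 in wild type, overexpressor and mutant) and AT2G39650 (0.22, 0.26 and 0.09). In AT3G22970 it was 0.28, -0.03 and 0.21. The same offset of AT3G07350 was -0.27 in wild type against 0.22 and 0.31 in the lines, and that of AT1G12030 stayed within 0.13 in all genotypes. All 3 genotypes had the same sign in 31.9% of all probe sets. The source of the offset in AT2G20670 was not tested.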
